A study of Mus musculus with 96 samples.

Results

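The genes described here encode the proteins of the small (40S) ribosomal subunit of the mouse. They were chosen by symbol, as every row of the expression table named Rps with a number and an optional copy letter, plus Rpsa, which gave 33 of 21711 gene rows. Of these, 31 are the standard gene of one small subunit protein, and the other two, Rps27l and Rps4y2, are copies of Rps27 and Rps4x. Fau, whose product is cleaved to a small subunit protein, and Gnb2l1, which encodes the scaffold protein RACK1 on the small subunit, do not carry the Rps name and are given apart. All 33 rows had at least 20 reads over both cell types and entered every count.

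The assay was STRT (single-cell tagged reverse transcription), in which each cell is lysed in a well, its RNA is copied with a well barcode, and the 5′ end of each transcript is read with its strand. One plate of 96 wells, sequenced as 1 library, held 48 wells with an R1 mouse embryonic stem (ES) cell each, 44 with a mouse embryonic fibroblast (MEF) and 4 wells as negative controls. MEFs were kept in DMEM with serum and 2-mercaptoethanol, while the ES cells had their own culture conditions, which the labels give by citation, and no genetic change or drug is named for either type. The labels also give R1 as the source line of the MEF wells, which conflicts with their cell type, and they name no separate cultures, so each cell type was treated as 1 culture and no p-value was computed.

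Small subunit proteins bind the 18S rRNA in the nucleolus, mature with it through a chain of assembly factors, and form the part of the ribosome that scans the messenger RNA and checks codon against anticodon. Each protein is present once in a subunit, so that its synthesis is thought to be matched to that of its partners. Their messenger RNAs belong to the 5′ terminal oligopyrimidine (TOP) class, which starts with a C and a run of pyrimidines and is translated under control of mTOR signalling, and ES cells divide fast, so that they must keep making ribosomes.

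Because the method reads 5′ ends, the start sites are shown first. Windows of 30 bases, from 20 bases before to 10 bases after the RefSeq start (GRCm38.p6, each on its gene's strand), are printed for 6 members whose longest run near the start lies inside the window, and capitals mark every C followed by at least 4 pyrimidines (C or T) on that strand.
Rps6, chr4:86857358-86857387, minus strand: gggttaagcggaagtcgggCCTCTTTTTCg
Rps10, chr17:27635235-27635264, minus strand: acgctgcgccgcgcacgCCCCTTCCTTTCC
Rps18, chr17:33955656-33955685, minus strand: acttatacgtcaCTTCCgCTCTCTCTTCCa
Rps27, chr3:90213639-90213668, minus strand: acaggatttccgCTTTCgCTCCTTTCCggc
Rps15a, chr7:118116138-118116167, minus strand: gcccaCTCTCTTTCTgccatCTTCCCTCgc
Rps9, chr7:3704021-3704050, plus strand: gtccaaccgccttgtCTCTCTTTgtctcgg
The reference table held 24 of the 33 members. Within 10 bases of the annotated start, 15 of the 24 (62.5%) had such a run, as did 25 of 41 large subunit genes and 33.3% of the 27025 genes in the table. Within 40 bases, a window added after the first result was seen, 23 of 24 members (95.8%) and 74.1% of all genes had one. The 6 genes printed include members on both sides of the comparison below, Rps6 and Rps10 at higher levels in ES cells and Rps15a at a lower one. These are matches of letters in annotated windows and were not compared with the start positions of the reads.

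Of the cell wells, 45 of 48 ES and 44 of 44 MEF wells had at least 10000 gene reads and were used. Gene reads per well had a median of 161206 (13576 to 703423) in ES cells, 851801 (63938 to 1883709) in MEFs and 3814.5 (236 to 4662) in negative controls. The types also differed in gene reads per spike-in read, with medians of 6.62 in ES cells, 152 in MEFs and 0.126 in negative controls, so that every level below is relative to the gene reads of its own well or type. In CPM, a row's count for each 1e+06 gene reads, Pou5f1 stood at 731 over the pooled ES wells, against 2.59 over the MEF wells, and Col1a1 at 76.4 over the ES wells, against 1709 over the MEF wells. All 5 ES markers were higher in ES cells and all 5 fibroblast markers (Col1a1, Col1a2, Fn1, Vim and Thy1) in MEFs, while the 4 blood markers were at or near 0. ES wells 4, 7, 8 and 30 had a profile nearer that of MEFs than that of the other ES wells, and in wells 2, 7, 8 and 30 spike-in reads outnumbered gene reads.

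Small subunit genes took a larger part of the reads in ES cells. Summed over the 33 members, their share of gene reads in a well had a lowest, median and highest value of 4.26%, 11.97% and 17.9% in ES cells, against 1.91%, 5.35% and 9.54% in MEFs. The mean was 11.7% ± 2.71 (SD over 45 wells) in ES cells and 5.31% ± 1.60 (SD over 44 wells) in MEFs. The ranges overlapped at their ends. ES well 4 had the lowest share among ES cells, and without the wells nearer the MEF profile the ES median was 12.1%. The 4 negative control wells had shares of 6.36% to 7.61%, between both medians, on far fewer reads. In ES wells the share was lower where fibroblast marker reads were higher (Pearson's r = -0.51, Spearman's rho = -0.34, n = 45 wells of one library, and these shares have the same total), and the part of these reads in the share was not tested.

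**Figure D1:**
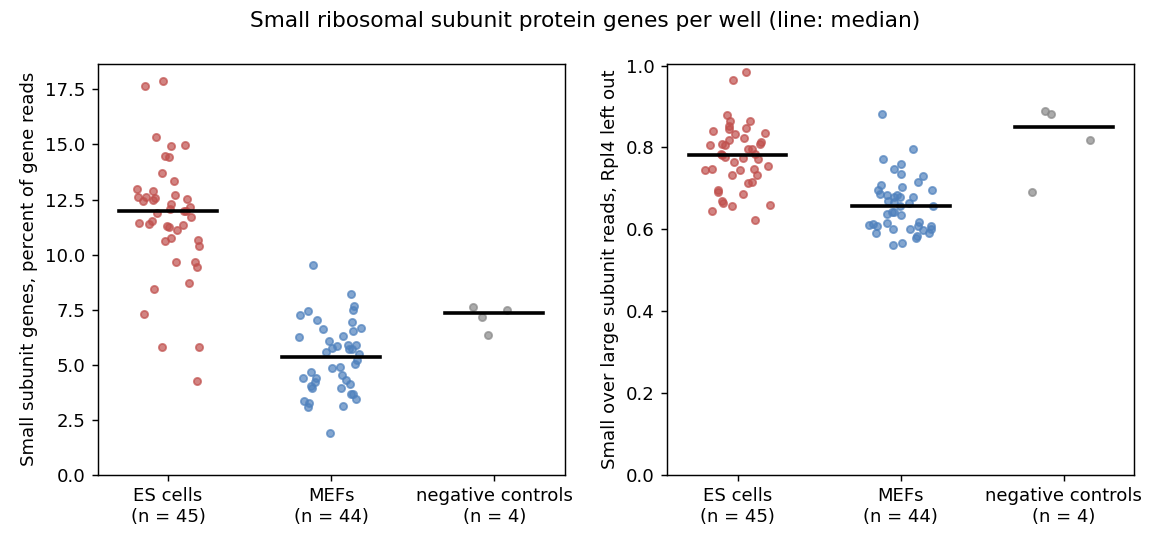
Left, percent of gene reads from the 33 small subunit genes in each well. Right, ratio of small to large subunit reads in each well with Rpl4 left out. Points are wells, lines are medians, and ES cells (11.97% and 0.783) lie mostly above MEFs (5.35% and 0.657), with the 4 negative controls at the right of each panel.

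By gene, most members were higher in ES cells. On the CPM scale, 18 of 33 were 2-fold or more above MEFs in ES cells (15.4% of 12818 measured genes were), 3 were 2-fold or more above ES cells in MEFs (58.5% of measured genes were), and 12 were neither. The median log2 ratio of pooled CPM, ES cells over MEFs, was 1.05 with an SD of 0.32 over the 8 plate rows, each of which held both types, and the row medians ran from 0.48 to 1.54. The median gene (11054 genes with at least 100 reads) had a log2 ratio of -1.54, so that relative to it the members stood at 2.59, and 29 of 33 were at least 2-fold above it (33.8% of measured genes) and 0 at least 2-fold below (32.5%). In all 8 plate rows, 24 members were higher in ES cells (7.01% of measured genes) and 3 were higher in MEFs (15.7%). The measured genes, which needed only 20 reads, were not matched to the members for read level. No member had ES and MEF wells that did not overlap, which 1 gene did (0.0078%).

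The sign against 0 depends on what the reads are divided by, while a factor common to all genes of a type leaves the order of the members as it is. The median member ratio was 2.34 with median-of-ratios scaling, 1.70 with ribosomal protein genes left out of the totals and -3.51 with spike-in scaling, and the median of all genes moved to -0.26, -0.89 and -6.10 under the same scalings. Dividing by total reads, 26 members lay above 0, against 33 with median-of-ratios scaling and 0 with spike-in scaling. Values relative to the median gene or to the median member are therefore given beside the ratios of members at both ends and of those near 0.

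The standard members can be grouped by their place in the subunit, a grouping made after their values were known. The 14 proteins of the head, among them Rps3, Rps10, Rps15, Rps18, Rps19, Rps20 and Rps28, had a median log2 ratio of 1.06, with 9 past 2-fold toward ES cells and 1 past 2-fold toward MEFs. The 17 proteins of the body and platform had a median of 0.99, with 8 past 2-fold toward ES cells and 2 toward MEFs. Of all measured genes, 15.4% passed 2-fold toward ES cells and 58.5% toward MEFs. The lowest ratio was -1.24 in the head (Rps19) and -1.22 in the body (Rps15a). Members with high and with low ratios were found in both groups.

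**Figure D2:**
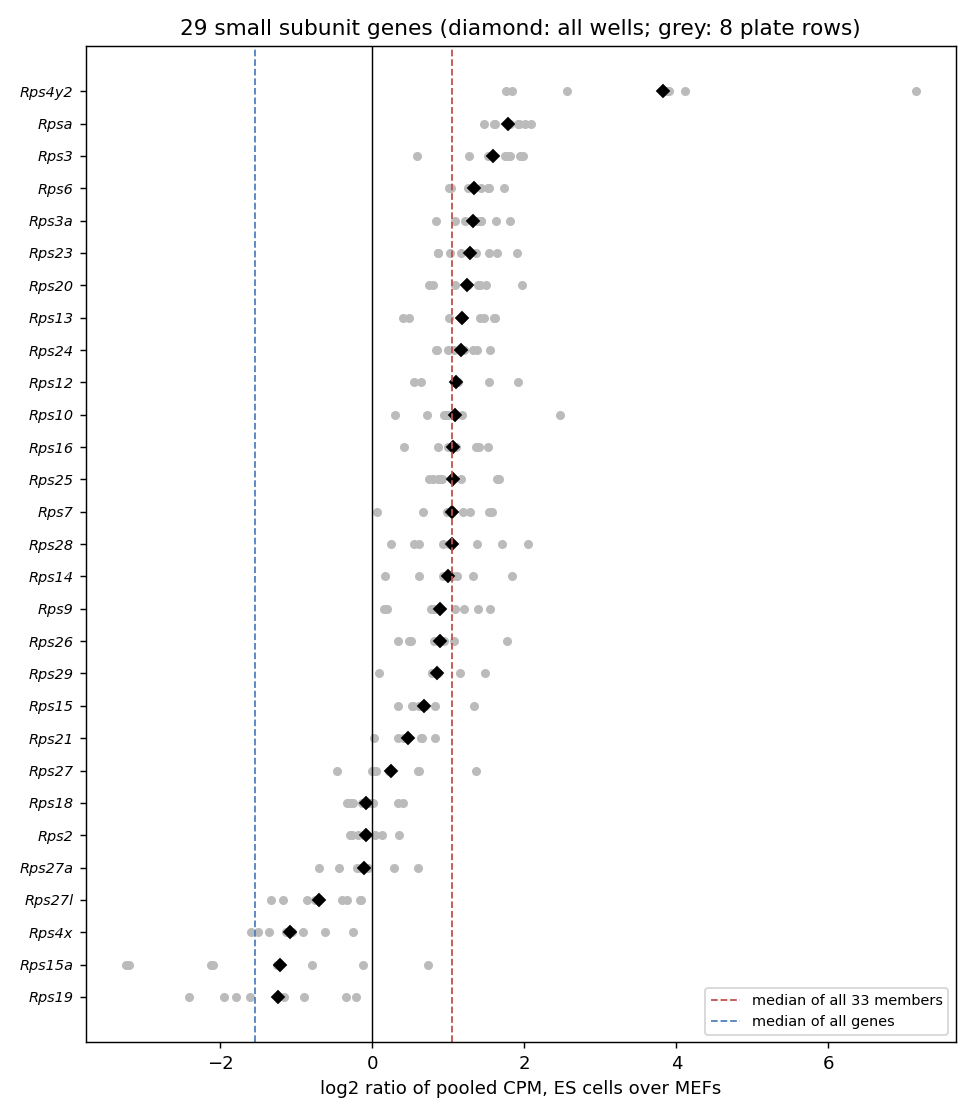
Log2 ratio of pooled CPM, ES cells over MEFs, of 29 of the 33 small subunit genes from highest to lowest, with all wells (diamonds) and within each of 8 plate rows (grey points). Most members lie about the member median of 1.05 (red dashed line), and Rps4y2 at 3.82 and Rps19 at -1.24 are the ends. All diamonds lie above the median of all genes over all wells at -1.54 (blue dashed line). Some grey points of Rps19, Rps15a and Rps4x lie below it.

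Rps3, a head protein at the entry of the messenger RNA channel, had 1461, 4974 and 8780 CPM (lowest, median and highest well) over ES wells, against 671, 1655 and 3825 CPM over MEF wells, with 34 ES wells above the highest MEF well. Its log2 ratio was 1.59 (SD 0.46). Rpsa, a body protein also known as the laminin receptor precursor, had 589, 2219 and 4569 CPM over ES wells, against 175, 672 and 1408 CPM over MEF wells, with 38 ES wells above the highest MEF well. Its log2 ratio of 1.78 had a small spread over plate rows (SD 0.22). Rpsa and Rps3 lay above the median member in each of the 8 plate rows, as did Rps3a, Rps23 and Rps24 among others. This was not counted over all genes.

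The main body of members lay near the median member. Of the 33, 24 had a log2 ratio within 1 of the median member and 19 within 0.5, a count not made for other genes. In this group was Rps6, the target of the S6 kinases, at 3269 CPM in ES cells and 1291 CPM in MEFs (log2 ratio 1.34). Rps23, a protein of the decoding centre, stood at 6098 CPM in ES cells and 2495 CPM in MEFs (log2 ratio 1.29), with 39 ES wells above the highest MEF well, and Rps20 at 7960 CPM in ES cells and 3368 CPM in MEFs (log2 ratio 1.24). Rps14, known in humans for its loss in the 5q- syndrome, had 5708 CPM in ES cells and 2866 CPM in MEFs (log2 ratio 0.99). Rps26, which contacts the messenger RNA upstream of the start codon, had 5283 CPM in ES cells and 2856 CPM in MEFs (log2 ratio 0.89). Besides Rpsa and Rps3, the group ran from Rps6 down to Rps27 at 0.24. In log2 ratio, Rps3a, a platform protein, stood at 1.33, Rps13 at 1.18, Rps24, which is mutated in some cases of human Diamond-Blackfan anaemia, at 1.17, Rps12 at 1.10, Rps10 at 1.09, and Rps16, whose tail reaches toward the tRNA, at 1.07. Then came Rps25 at 1.06, Rps7, which is known to bind the p53 regulator Mdm2, at 1.05, Rps28 at 1.05, Rps9 at 0.89, Rps29 at 0.85, Rps15 at 0.68 and Rps21 at 0.47. Each of the genes in these 2 sentences was higher in ES cells in 8 of 8 plate rows, and in each the ES and MEF wells overlapped. Over all 33 members, the SD of the log2 ratios was 0.99, and without the copies Rps4y2 and Rps27l it was 0.81. It was 1.77 over the 51 measured large subunit genes, which ran from -2.80 to 10.2. Over the 12818 measured genes, which were not matched for read level, it was 2.67.

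Below them came a group near 0 on the CPM ratio, still above the median gene. Rps18 had a log2 ratio of -0.08 (636 CPM in ES cells and 670 CPM in MEFs), Rps2, a protein near the entry channel, of -0.09 (388 CPM in ES cells and 412 CPM in MEFs), and Rps27a, which is made as a fusion with ubiquitin, of -0.10 (589 CPM in ES cells and 632 CPM in MEFs). Relative to the median gene Rps18 was at 1.46, Rps2 at 1.46 and Rps27a at 1.44. Rps18 and Rps2 were below the median member in 8 of 8 plate rows and Rps27a in 7. Rps21, of the main body, was also below it in 8 of 8.

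Rps19, Rps15a and Rps4x formed the low end, each past 2-fold toward MEFs on the CPM scale. Rps19, a head protein needed for maturation of the 18S rRNA and mutated in human Diamond-Blackfan anaemia, had 6.87, 195 and 2570 CPM (lowest, median and highest well) over ES wells, against 97.3, 502 and 1229 CPM over MEF wells. Its log2 ratio was -1.24 (SD 0.78), 2.29 below the median member. Of its reads 80.7% were unique, and the pseudogene row Rps19-ps3, with 4.55% unique reads, held 393 reads in ES cells and 3865 in MEFs.

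Rps15a, a body protein, was read in 38 of 45 ES wells and 44 of 44 MEF wells, with 0, 151 and 1184 CPM over ES wells, against 13.1, 416 and 1033 CPM over MEF wells. Its log2 ratio was -1.22 with the large SD of 1.42 over plate rows, and it was higher in ES cells in 1 row. Rps4x, the X-linked gene of protein S4, had 15.7, 380 and 3849 CPM over ES wells, against 141, 835 and 1736 CPM over MEF wells, with a log2 ratio of -1.09 (SD 0.45). Rps19, Rps4x and Rps27l were the 3 members higher in MEFs in 8 of 8 plate rows. Relative to the median gene Rps19 stood at 0.30, Rps15a at 0.32 and Rps4x at 0.45. These places depend on the pseudocount. With 10 CPM added, the median member fell from 2.59 to 1.72 relative to the median gene. That fall is larger than any of these 3 values, which were not computed under that setting, so their sign is not settled. With median-of-ratios scaling, which puts no member below 0, the ratios were 0.04 for Rps19, 0.07 for Rps15a and 0.20 for Rps4x, and with the mean of per-cell CPM they were -0.80, -0.75 and -0.52. No member passed 2-fold toward MEFs under either, nor with each cell thinned to 20000 reads.

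The sum of these 3 genes, which were picked for their low ratios in these data, rose with the fibroblast markers over ES wells. Summed, Rps19, Rps15a and Rps4x had a median of 716 CPM (183 to 4680) over ES wells, against 1767 CPM (650 to 3249) over MEF wells, and 3058 CPM in negative controls. The summed fibroblast markers had a median of 1076 CPM (172 to 23558) in ES wells, 21618 CPM (5825 to 64128) in MEF wells and 18822 CPM in negative controls, and all 5 were read in ES wells, Thy1 in 15 and Fn1 and Vim in 44 of 45. The summed ES markers had a median of 6273 CPM in ES wells, 21.7 CPM in MEF wells and 5771 CPM in negative controls. The negative controls thus held marker reads of both types, and their medians rest on 4 wells of 236 to 4662 gene reads. On log2(CPM + 10), the sum of the 3 genes and that of the fibroblast markers had r = 0.75 and rho = 0.71 over the 45 ES wells. It was r = 0.73 without the 2 wells farthest from the median, while over the 44 MEF wells r was -0.03. Without the 4 ES wells nearer the MEF profile r was 0.67, and the log2 ratios of the 3 genes were -1.26, -1.27 and -1.14 in the order above. Taken singly over the 45 ES wells, 7 of the 33 members had a positive r with the fibroblast markers and the others a negative one. The positive ones included Rps19 (0.62), Rps15a (0.63), Rps4x (0.54) and Rps18 (0.37). Rps27l, also lower in ES cells, had r = -0.01. The same was not counted over all genes. The wells share one library and a closed total, and the part of fibroblast reads in the levels of Rps19, Rps15a and Rps4x was not tested.

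**Figure D3:**
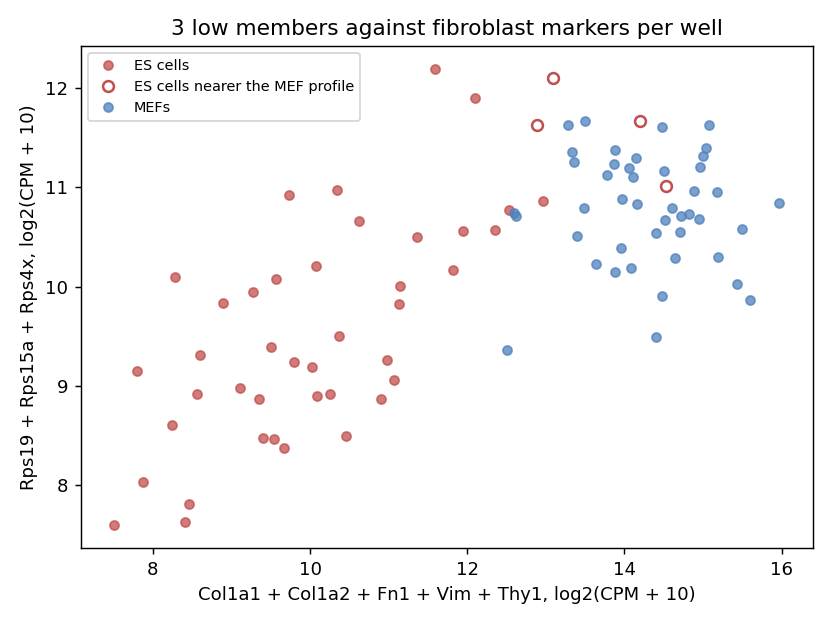
Summed level of Rps19, Rps15a and Rps4x against the summed level of 5 fibroblast markers, both as log2(CPM + 10), in each ES well (red) and MEF well (blue). The ES wells run from low on both axes up to the MEF wells (r = 0.75), the 4 ES wells nearer the MEF profile (open circles) lie at the upper end, and the MEF wells show no slope (r = -0.03).

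Rps4y2, the member with the highest ratio, is a single-exon copy of Rps4x. RefSeq places Rps4x on chrX:102184941-102189391 with 7 exons in GENCODE, and Rps4y2, which it calls Rps4l and a transcribed pseudogene, on chr6:148354656-148355596 with 1 exon (both GRCm38). Over the coding sequence of Rps4x (792 bases), 632 of 789 aligned bases of the copy were identical (80.1%), with 1 gap, and the longest open frame of the copy's transcript was 789 bases. The first 60 coding bases of both (GENCODE M21 transcripts) are shown so that the pair can be compared, with the 7 positions where they differ in capitals.
Rps4l (Rps4y2): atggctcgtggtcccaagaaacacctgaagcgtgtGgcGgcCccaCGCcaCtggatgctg
Rps4x: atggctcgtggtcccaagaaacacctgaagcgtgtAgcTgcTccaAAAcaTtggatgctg
Of the reads of Rps4y2 99.94% were unique, and of those of Rps4x 99.99%, per the authors' column.

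Rps4y2 was read in 27 of 45 ES wells and 28 of 44 MEF wells. Its CPM had a lowest, median and highest value of 0, 11.2 and 1652 in ES wells, against 0, 4.75 and 438 in MEF wells, and 12 ES wells lay above the highest MEF well. Pooled, it had 469 CPM in ES cells and 33.3 CPM in MEFs, which made a log2 ratio of 3.82 with an SD of 1.72 between rows, higher in ES cells in 8 of 8 rows. It was 2.63 with the mean of per-cell CPM and 3.15 with each cell thinned to 20000 reads. The level sat in few wells. In ES cells 15 wells were over 100 CPM and 7 over 1000 CPM, and the 10 highest wells held 84.6% of the summed CPM, whereas in MEFs 5 wells were over 100 CPM and 0 over 1000 CPM.

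As a share of the reads of the pair, Rps4y2 held 53.2% (4092 of its own reads beside 3594 of Rps4x, exact binomial interval 52.1% to 54.4%) in ES cells, against 3.66% (1170 beside 30756, 3.46% to 3.88%) in MEFs, and 2 reads beside 16 in the negative controls. These intervals cover counting error only. The median ES well had 5.15% and the highest 88.6%, and Rps4y2 was above Rps4x in 13 ES wells and 1 MEF well. With each cell thinned to 20000 reads, the copy was seen in 16 of 42 ES wells and 11 of 44 MEF wells and held 38.6% of the pair in ES cells, against 3.96% in MEFs. Without the 4 ES wells nearer the MEF profile the ES share was 54.5%. Over ES wells both levels on log2(CPM + 10) had r = -0.07 (rho = -0.16, n = 45).

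**Figure D4:**
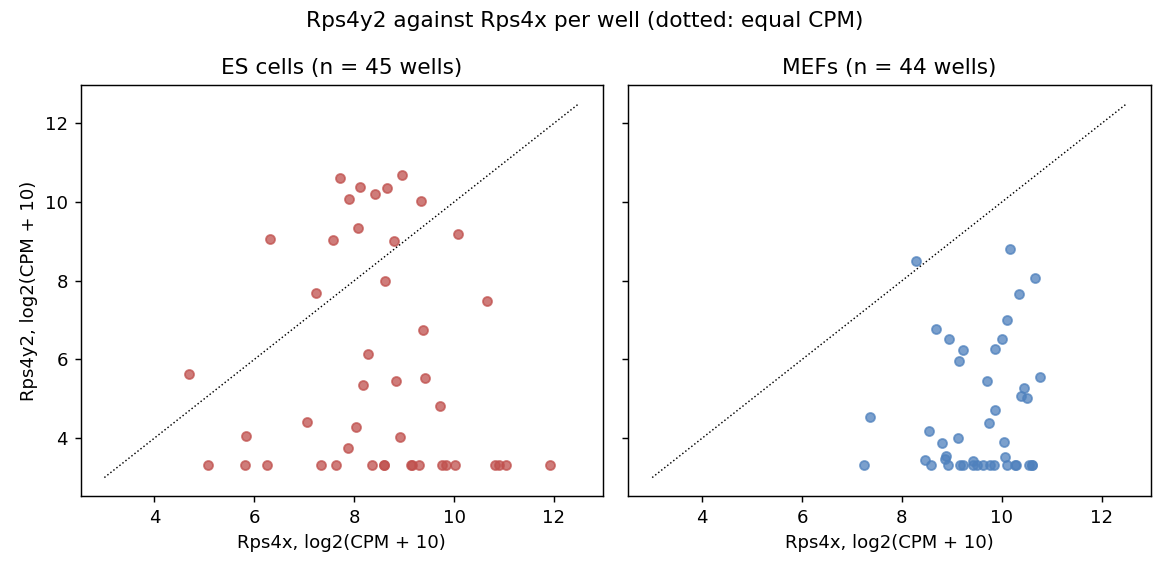
Rps4y2 against Rps4x, both as log2(CPM + 10), in each of 45 ES wells (left) and 44 MEF wells (right). In ES cells 13 wells lie above the dotted line of equal CPM and 18 have no Rps4y2 read, while in MEFs 1 well lies above the line.

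The second copy, Rps27l, is a gene of its own on chromosome 9 whose transcription is known to be raised by p53 in human cells. Its coding sequence has the same length as that of Rps27 (255 bases) and 76.1% identical bases, and the first 60 coding bases, with the 18 differences in capitals, show how far the pair has diverged.
Rps27l: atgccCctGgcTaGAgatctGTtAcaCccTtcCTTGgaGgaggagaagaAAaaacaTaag
Rps27: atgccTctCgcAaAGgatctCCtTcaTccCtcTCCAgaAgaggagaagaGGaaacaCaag
Rps27l had 0, 471 and 1207 CPM (lowest, median and highest well) over ES wells, against 119, 633 and 2140 CPM over MEF wells, a log2 ratio of -0.70 (SD 0.45) and 1.75 below the median member. Rps27 had 41.2, 225 and 1163 CPM over ES wells, against 38.2, 176 and 407 CPM over MEF wells, with a log2 ratio of 0.24 (SD 0.56). Rps27l thus held 64.8% of the reads of the pair in ES cells (63.5% to 66%), against 77.9% in MEFs (77.4% to 78.3%). Only 10.3% of the reads of Rps27 were unique, and RefSeq lists Rps27rt on chromosome 9 under the same former symbol, so the share rests on how the authors' counting placed them, whereas all reads of Rps27l were unique. Low unique shares were also found for Rps26 (21.7%), Rps19 (80.7%) and Rps23 (84.1%), and 28 members had at least 99%.

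Each standard protein is present once in a subunit, but the read levels of the genes were far from equal. Of all member reads, Rps28 supplied 7.74% in ES cells and 8.36% in MEFs, Rps20 6.60% in ES cells and 6.23% in MEFs, and Rps29 4.90% in ES cells and 6.06% in MEFs. Per kb of transcript, Rps28 had 28712 CPM per kb in ES cells and 13910 CPM per kb in MEFs, where it was the highest, while Rps15a was lowest in ES cells at 36.8 CPM per kb on a listed transcript of 5134 bases. Since only 5′ ends are read, a transcript does not give more reads for its length, and the order on both scales was much the same across genes (rho = 0.92 in ES cells and 0.94 in MEFs). The order was also shared by the cell types, with rho = 0.94 and r = 0.83 between the pooled CPM of the 33 genes in ES cells and in MEFs, as a description over genes of one library.

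Set against the large subunit, the balance of reads differed between the types in a way that turned on a single large subunit gene, Rpl4. Small over large subunit reads were 0.359 in ES cells and 0.571 in MEFs, pooled. Rpl4 alone had 181245 CPM in ES cells and 12516 CPM in MEFs, and without it the ratio was 0.780 in ES cells and 0.658 in MEFs, which turns the order. Per well and without Rpl4, the ratio ran from 0.623 over a median of 0.783 to 0.984 in ES cells, against 0.562, 0.657 and 0.882 in MEFs, and the ranges overlapped. The median log2 ratio of the 51 measured large subunit genes, 0.98, was close to the 1.05 of the small subunit. Of these 51, 24 passed 2-fold toward ES cells (15.4% of all measured genes did) and 3 toward MEFs (58.5%). Well by well the 2 subunits' shares of gene reads without Rpl4 went together, with r = 0.90 over 45 ES wells (0.83 without the 4 wells nearer the MEF profile) and r = 0.94 over 44 MEF wells, and these shares have one total.

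The spread of the members from cell to cell was near that of the large subunit genes. The coefficient of variation (CV) of CPM over wells had a median of 0.430 in ES cells (0.291 to 1.69) and 0.444 in MEFs (0.363 to 2.04), and after read counting noise was taken off it was 0.425 in ES cells and 0.443 in MEFs. CV was the higher in ES cells for 14 members and in MEFs for 19. All genes of at least 1000 CPM had a median CV of 0.472 in ES cells (109 genes, of which 23 were members with a median of 0.382) and of 0.498 in MEFs (130 genes, 21 members, 0.417). Large subunit genes of that level, which are among these 109 and 130 genes, had a median CV of 0.449 in ES cells (36 genes) and 0.438 in MEFs (31 genes). All genes of at least 100 CPM had a median CV of 1.51 in ES cells (902 genes, 33 members, 0.430). In MEFs it was 0.976 (1768 genes, 32 members, 0.443). Genes were not matched for level within these sets. Without the ES wells nearer the MEF profile the median over members was 0.400 in ES cells.

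The steadiest members in ES cells were Rps28 (CV 0.291), Rps23 (0.303) and Rps16 (0.306), all in the top 10 by level, and in MEFs Rps21 (0.363), Rps16 (0.387) and Rps25 (0.388). Rps16 had 920, 4433 and 7216 CPM (lowest, median and highest well) over ES wells, against 666, 1873 and 3851 CPM over MEF wells, and Rps28 had 2779, 9398 and 15726 CPM over ES wells, against 1284, 4330 and 9612 CPM over MEF wells. In ES cells 4 members had a CV of at least 1, which were Rps4y2 (1.69), Rps19 (1.42), Rps15a (1.24) and Rps4x (1.19), and in MEFs 1 did, Rps4y2 (2.04). Such a CV was common at their level of 189 to 469 CPM in ES cells. The median over the 902 genes of at least 100 CPM was 1.51, and of the 4 only Rps4y2 lay above it. How many of all genes reached 1 was not counted. The 4 in ES cells were the member with the highest log2 ratio and the 3 with the lowest, and in MEFs Rps19 had a CV of 0.442, Rps15a of 0.576 and Rps4x of 0.50.

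**Figure D5:**
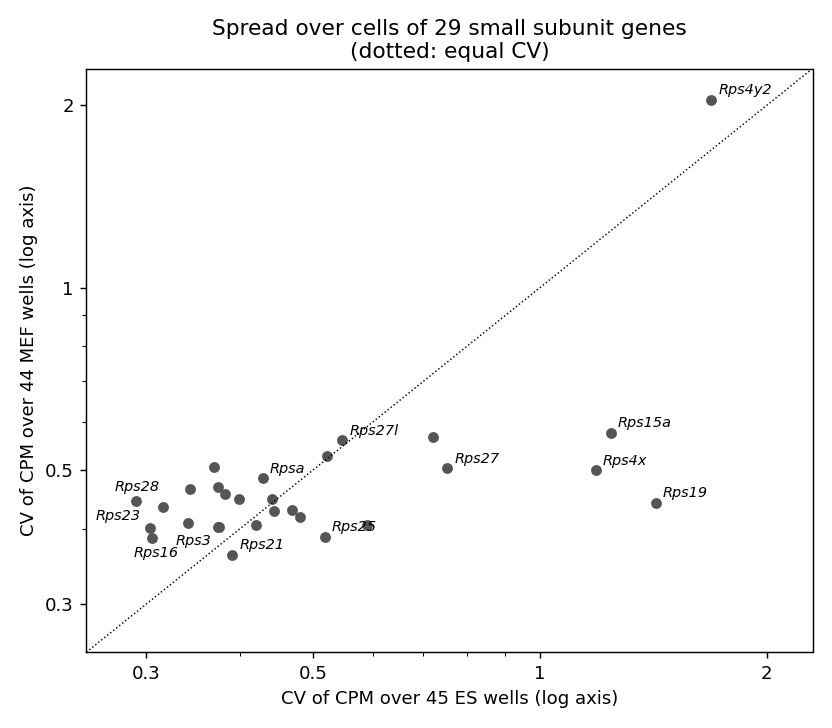
Coefficient of variation of CPM over 45 ES wells (horizontal) and 44 MEF wells (vertical) for 29 of the 33 small subunit genes, both axes on a log scale, with names for the genes described in detail. Most genes lie between 0.29 and 0.6 in both types, Rps4y2 is high in both, and Rps19, Rps15a and Rps4x lie to the right of the dotted line of equal CV.

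Pairs of members varied together over wells to a limited extent. Over the 528 pairs, the median Spearman correlation of log2(CPM + 10) was 0.136 in ES cells, with 71.4% of pairs positive, and 0.369 in MEFs, with 89.4% positive. Thinned to 20000 reads per cell, the medians were 0.115 over 42 ES wells and 0.317 over 44 MEF wells. As shares of the member reads of a well they were 0.012 in ES cells and -0.0064 in MEFs. Such shares add up to the same total in every well, which by itself holds their correlations near or below 0. The values on shares therefore do not tell whether members varied together. Pairs of large subunit genes had a median of 0.135 in ES cells and 0.296 in MEFs.

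Other genes were compared from a list of small subunit proteins, assembly factors and genes with S6 kinase symbols (Rps6ka and Rps6kb). Fau had 3291 CPM in ES cells and 2039 CPM in MEFs (log2 ratio 0.69, SD 0.52 over plate rows), and Gnb2l1 1735 CPM in ES cells and 1268 CPM in MEFs (log2 ratio 0.45, SD 0.29), both within 1 of the median member. Of 48 measured assembly and nucleolar genes, 11 (22.9%, beside 15.4% of all measured genes) passed 2-fold toward ES cells, 12 (25%, beside 58.5%) toward MEFs and 25 neither, with a median log2 ratio of -0.32, which is 1.22 above the median gene. With 10 CPM added, the 4 largest log2 ratios were 3.20 for Nop56, a box C/D snoRNP protein, 2.32 for Emg1, an 18S rRNA methyltransferase, 2.01 for Heatr1, a protein of the early small subunit precursor, and -1.67 for Rps19bp1, a partner of Rps19. Of the 8 genes with S6 kinase symbols, 2 (25%, beside 15.4% of all measured genes) passed 2-fold toward ES cells and 5 (62.5%, close to 58.5%) toward MEFs. The 2 were Rps6ka6, read in 8 ES wells, and Rps6ka5, read in 4. Most of these genes had under 100 CPM and were read in a minority of ES wells, so their ratios rest on few cells.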

How the data were processed

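The deposited table holds raw read counts per transcript and well, with no normalisation, per the file headers. Per the file headers the counts are maximum exon hits, which include reads that map elsewhere too, and reads carry no molecular identifiers that the sources mention. Bowtie is named in the submitters' processing notes. Its version, the genome build and the annotation are not given in the sources used here, and a deposited column gave the authors' count of unique reads. Coordinates and sequences are from RefSeq and GENCODE M21 on GRCm38. Wells with at least 10000 gene reads were used, sums of counts per type were scaled to their gene read total (CPM), and log2 ratios were set against the SD over 8 plate rows, which holds no variation between cultures. Genes with at least 20 reads counted as measured, and those with at least 100 gave the all-gene median. Poisson and Clopper-Pearson 95% intervals cover counting error only. The members, the lists and the grouping by place in the subunit were chosen with earlier results of these data known. Full values are given for the 4 highest and 4 lowest log2 ratios, for the copies, for the 3 highest and 3 lowest CVs in each type and for the highest and lowest CPM. Other members were named after their values were seen. Values of 4 members are not reported here, though they enter every sum and count. Scaling, pooling, well minimum, unique reads, plate rows, thinning, pseudocount and control background were varied. The code was tested on simulated data. Python 3.11.15, numpy 2.4.6, pandas 2.3.3, scipy 1.17.1 and matplotlib 3.10.9 were used.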

Additional observations from a re-analysis of the deposited data

Results flagged for a closer look

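ES cell well 44, which was left out because it held under 10000 gene reads, had a small subunit share of 8.37% of gene reads, above the highest negative control well (7.61%) and below the ES median of 11.97%. It is given because it stands outside the wells compared, and its cause was not tested.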

How the results depend on the processing

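Of the settings tried, the scaling moved the members most. The median log2 ratio, 1.05, was 2.34 with median-of-ratios scaling, 1.70 with ribosomal protein genes left out of the totals, and -3.51 with spike-in scaling, where its sign turned. Members at least 2-fold higher in ES cells numbered 29 with median-of-ratios scaling, 0 with spike-in scaling and 11 in plate rows E to H, against 18. Those at least 2-fold higher in MEFs numbered 32 with spike-in scaling, and 0 with median-of-ratios scaling, without ribosomal protein genes in the totals, with the mean of per-cell CPM and after thinning, against 3. The median of all genes, -1.54, moved as well, to -0.26 with median-of-ratios scaling and -6.10 with spike-in scaling. It was -0.89 without ribosomal protein genes in the totals and -1.18 after thinning. Shares of all measured genes past 2-fold were not counted under these settings, so these counts have no background beside them. The median relative to all genes was 1.72 with 10 CPM added, against 2.59. The ES share of reads was 11% with members of at least 80% unique reads. The small over large ratio was 0.780 in ES cells and 0.658 in MEFs without Rpl4, and in MEFs 0.553 with members of at least 80% unique reads. The median CV in ES cells was 0.376 with a minimum of 50000 reads. As shares of member reads the CV was 0.375 in ES cells and 0.333 in MEFs. The pairwise correlation of shares, which their closed total holds near or below 0, was 0.012 in ES cells and -0.0064 in MEFs. Of the named members, Rps4x relative to the median member was -1.54 with the mean of per-cell CPM, against -2.14, and the other 163 comparisons moved by less than the spread over plate rows. Among these, Rps4y2 relative to the median member was 1.61 with the mean of per-cell CPM and 2.10 after thinning, against 2.76. The cause was not tested. The settings without Rpl4 and without ES wells nearer the MEF profile were chosen after seeing the data. No paired analysis was possible because the wells of the cell types share no replicate numbers. The plate rows, which hold both types but different cells, gave within-row ratios without a test.

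The comparison rests on 1 culture per type, on 1 plate with each type on its own side, so cell type, culture and plate side cannot be told apart. ES wells had fewer gene reads, and reads without molecular identifiers count PCR copies. Fewer molecules per cell and a smaller share cannot be told apart from relative counts.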
